A study of Mus musculus with 15 samples.

Results

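The 10 genes described here make prostaglandins or receive the prostaglandin E2 signal, and they were chosen by name: Pla2g4a, Ptgs1, Ptgs2, Ptges, Ptgis, Ptgds, Ptger1, Ptger2, Ptger3 and Ptger4. All 10 have an entry among the 46603 Ensembl gene IDs of every deposited count file, and 8 had enough reads to be tested, whereas Ptger2 and Ptger3 did not. RNA was sequenced from mouse embryonic fibroblasts with both copies of the beta-actin gene Actb (WT), with 1 copy (HET) or with none (KO), of the BALB/c strain. Every group was cultured on Matrigel in an osteogenic medium that also held dexamethasone, a glucocorticoid, and forskolin, which activates adenylyl cyclase and raises cyclic AMP. RNA was taken after 4 days from WT and KO cells and after 14 days from WT, KO and HET cells, which gives 5 groups of 3 libraries. No HET library of day 4 and no cells without the dexamethasone and forskolin medium were analysed here, so every value belongs to cells under those agents. The labels do not say whether the 3 libraries of a group came from separate cultures, so p-values measure the spread between these libraries, which may be technical. The labels give no embryo or line for the cells either, and the origin of the cells cannot be told apart from their genotype.

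Prostaglandins are local lipid signals made from arachidonic acid. Pla2g4a encodes cytosolic phospholipase A2 alpha, which frees arachidonic acid from membranes. The cyclooxygenases COX-1 (Ptgs1) and COX-2 (Ptgs2) turn it into prostaglandin H2, and terminal synthases turn that into prostaglandin E2 (Ptges), prostacyclin (Ptgis) or prostaglandin D2 (Ptgds). Ptger1 to Ptger4 encode the E2 receptors EP1 to EP4, of which EP2 and EP4 raise cyclic AMP, EP3 mostly lowers it and EP1 raises calcium. In osteoblasts and fibroblasts COX-2 is known as the inducible enzyme, which cyclic AMP and cytokines raise and glucocorticoids lower, and prostaglandin E2 is a known regulator of bone formation.

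The sequences upstream of the cyclooxygenase genes and of Ptges are shown because these 3 genes followed different courses over the groups. They come from the RefSeq table of GRCm38.p6, which matched 8 of the 10 genes (not Ptgis or Ptger1). Each holds the 250 bases before the gene's annotated start, read 5′ to 3′ on the gene's own strand, and capitals mark a match to a searched motif. Ptgs2 lies at chr1:150099781-150100030 on the plus strand, Ptgs1 at chr2:36230176-36230425 on the plus strand and Ptges at chr2:30903298-30903547 on the minus strand. A further 25 bases of Ptgs2 follow its start, from base 6 to base 30, at chr1:150100036-150100060.
Ptgs2 upstream: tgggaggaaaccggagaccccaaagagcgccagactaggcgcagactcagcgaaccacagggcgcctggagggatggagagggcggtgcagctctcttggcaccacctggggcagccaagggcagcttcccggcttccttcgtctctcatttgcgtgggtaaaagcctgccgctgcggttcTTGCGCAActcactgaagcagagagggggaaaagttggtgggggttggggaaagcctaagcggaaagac
Ptgs2 after the start: caccactaCGTCACGTGgagtccgc
Ptgs1 upstream: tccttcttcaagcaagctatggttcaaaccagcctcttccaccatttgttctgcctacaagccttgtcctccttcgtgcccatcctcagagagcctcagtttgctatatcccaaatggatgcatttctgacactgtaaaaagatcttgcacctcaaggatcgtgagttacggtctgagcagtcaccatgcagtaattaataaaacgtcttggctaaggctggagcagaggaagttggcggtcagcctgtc
Ptges upstream: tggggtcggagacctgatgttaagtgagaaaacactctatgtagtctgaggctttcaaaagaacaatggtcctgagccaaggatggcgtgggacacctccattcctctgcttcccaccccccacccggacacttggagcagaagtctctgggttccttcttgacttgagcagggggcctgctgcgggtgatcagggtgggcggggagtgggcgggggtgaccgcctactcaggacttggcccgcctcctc

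The search covered both strands of the 250 bases before and the 50 bases after the start. It looked for TGACG, the core of the cyclic AMP response element, and for TTGCNNAA, a pattern that fits many sites bound by C/EBP factors. It also looked for the E-box CACGTG. The TATA box was searched as TATAAA, and the CArG box bound by SRF and the NF-kappaB site by their usual consensus. In Ptgs2 the C/EBP pattern read TTGCGCAA at bases -69 to -62. The cyclic AMP core was found as CGTCA, its reverse strand, at bases 14 to 18 after the start, and overlapped the E-box at bases 17 to 22. Of 32851 such windows in the RefSeq table, 20.81% held the cyclic AMP core, 10.8% the C/EBP pattern and 7.15% the E-box. Ptgs1 and Ptges had none of the searched letters in their windows. Elsewhere among the members, Ptgds held an NF-kappaB site at bases -22 to -13 and Ptger2 the C/EBP pattern at bases 40 to 47. NF-kappaB sites were in 4.51% of windows, TATAAA in 13.62% and CArG boxes in 1.63%. A match describes letters and was not tested for binding.

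The day 4 libraries were deeper, with 25665666 to 47486736 counts each, than those of day 14, with 19878449 to 24822803. Actb, the targeted gene, was at 2996 ± 62.6 CPM in WT, 1522 ± 107 in HET and 44.7 ± 1.74 in KO at day 14 (mean ± SD, n = 3), and at 1181 ± 15.1 in WT and 134 ± 4.38 in KO at day 4. Levels are given in CPM, the usual counts-per-million unit, after TMM scaling of library sizes. The HET library of replicate 2 stood apart: the chi-square statistic divided by its degrees of freedom was 45.6 and 45.8 for its comparison with each of the other HET libraries, which gave 2.81 between themselves. The WT libraries of day 14 also differed more from each other, at 4.73 to 17.0. Within WT of day 4 and within KO of each day it was 2.15 to 2.90. The share of mitochondrial transcripts was 0.370 to 0.452% in WT, 0.607 to 0.769% in HET and 0.741 to 0.902% in KO libraries. Of 9 osteoblast markers, Spp1, Col1a1, Runx2 and Alpl were expressed in every group. Sp7, Ibsp and Dmp1 had at most 4 counts over the 3 libraries of any group and Bglap at most 25. Phex was higher in KO than in WT at day 4 (edgeR log2 fold change 3.52, SE 0.22). At day 14 it did not differ between them at an adjusted p under 0.05 (0.05, SE 0.75, edgeR adjusted p = 0.955). Over time Phex fell in WT (-3.14, SE 0.58). The cells are therefore named here by genotype and day.

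Most expressed genes differed between these groups, and the members are read against that background. A gene had to reach the count filter to be tested, and Ptgds reached it through the KO libraries alone, so it is left out of the counts here, which describe the 7 other tested genes and not the pathway. In edgeR's quasi-likelihood test at an adjusted p under 0.05, 7 of these 7 passed between KO and WT at day 14 (3 higher, 4 lower), where 63.1% of the 15296 tested genes passed (30.9% higher, 32.2% lower). At day 4 all 7 passed again (4 higher, 3 lower), against 69.5% of all genes (35.7% higher, 33.8% lower). HET against WT gave 5 of 7 (2 higher, 3 lower), against 58.3% of all genes (28.3% higher, 29.9% lower). KO against HET gave 6 of 7 (3 higher, 3 lower), against 59.5% (29.4% higher, 30.1% lower). From day 4 to day 14, 4 of 7 passed in WT (2 higher, 2 lower), against 74.6% (39.7% higher, 34.9% lower). In KO 6 of 7 passed over time (2 higher, 4 lower), against 60.9% (30.8% higher, 30.1% lower). The difference between the KO and the WT change over time passed for 4 of 7 (2 positive, 2 negative), against 64.7% (30.7% positive, 34% negative). Over the same 7 genes, the median log2 fold change was -0.86 for KO against WT at day 14, where that of all genes was -0.02, and 0.36 at day 4, where that of all genes was 0.03.

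**Figure D1:**
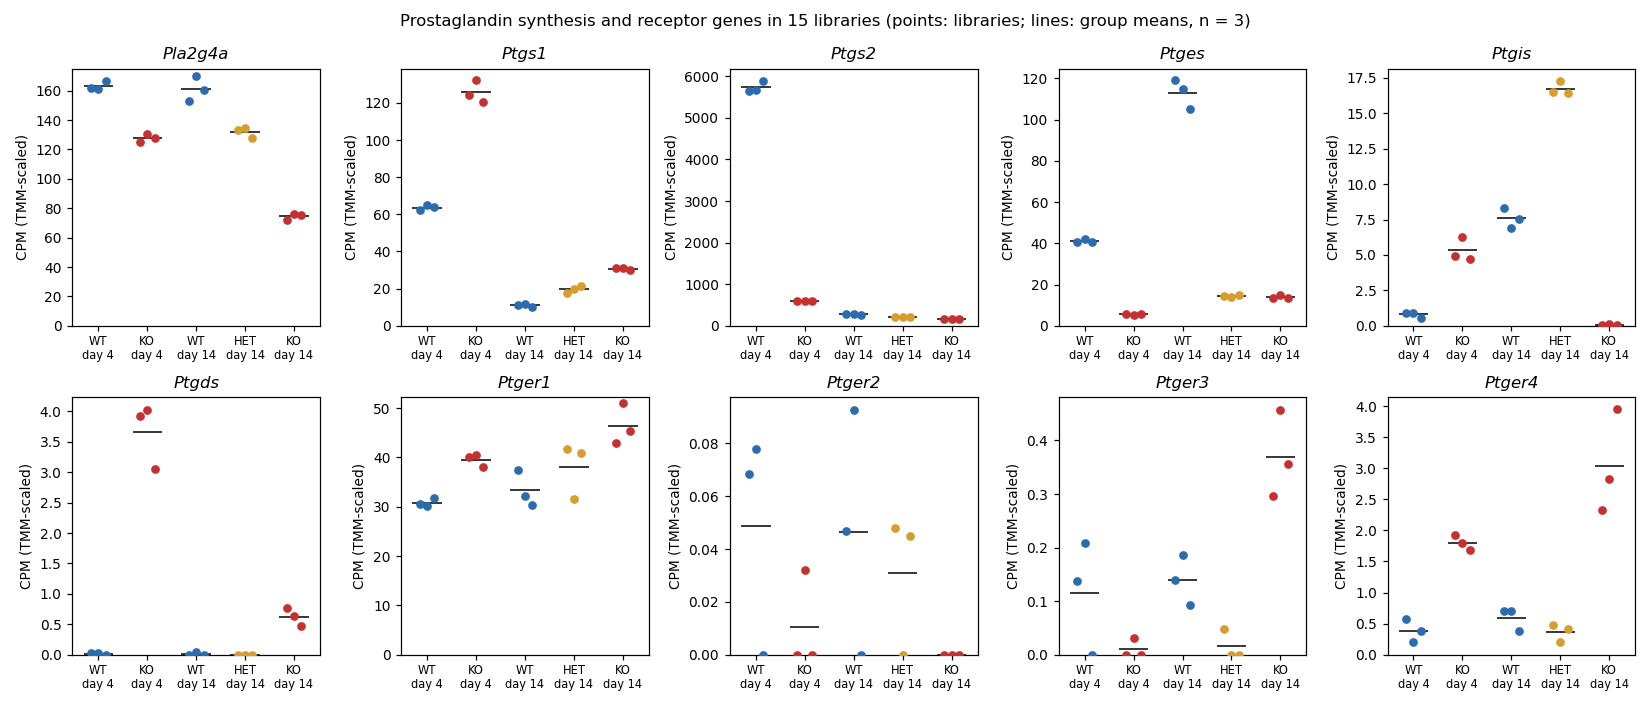
Level of each of the 10 genes in each library, as TMM-scaled CPM on a linear axis that starts at 0 and differs between panels. Points are the 3 libraries of each of the 5 groups and lines are group means. Ptgs2 in WT at day 4 reached 5645 to 5898 CPM, while Ptger2 stayed at or under 3 counts in every library.

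Pla2g4a, the phospholipase that supplies the cyclooxygenases, was similar in WT at both days and lowest in KO at day 14. Its levels were 162, 161 and 167 CPM in WT and 125, 130.21 and 128 CPM in KO at day 4. At day 14 they were 153, 170.15 and 160.16 CPM in WT, 133, 134 and 128 CPM in HET and 72.2, 76.4 and 75.4 CPM in KO. The KO libraries of day 14 lay below all others, and only the HET and the KO day 4 libraries, and the 2 WT groups, overlapped each other. By edgeR, the log2 fold change of Pla2g4a in KO against WT was -0.35 ± 0.05 (SE, adjusted p = 7.58e-06) at day 4 and -1.11 ± 0.05 (adjusted p = 2.94e-11) at day 14. HET lay between, at -0.29 ± 0.05 against WT (adjusted p = 9.76e-05). Over time Pla2g4a did not pass in WT (-0.02 ± 0.05, adjusted p = 0.722) and fell in KO (-0.78 ± 0.05, adjusted p = 1.61e-09), and the difference between these changes was -0.76 ± 0.07 (adjusted p = 1.01e-07). In bulk libraries such as these, fewer cells of a type and less RNA per cell cannot be told apart.

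Ptgs2, the inducible COX-2, was among the most abundant messages of the WT cells at day 4 and far lower in every other group. Its levels were 5645, 5678 and 5898 CPM in WT at day 4, where it ranked at place 2 by count and at place 5 by reads per kilobase in each of the 3 libraries. It made up 0.520 to 0.545% of all counts there. KO cells of day 4 held 595, 598 and 607 CPM, or 0.0606 to 0.0617% of counts. At day 14 the levels were 288, 285 and 268 CPM in WT, 206, 200.04 and 201 CPM in HET and 152, 155 and 154 CPM in KO. The groups therefore ran, from high to low, WT day 4, KO day 4, WT day 14, HET and KO day 14, and no library of a group overlapped the next group.

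The genotype difference in Ptgs2 was larger at day 4 than at day 14. In edgeR's test Ptgs2 was 9.57-fold lower in KO than in WT at day 4 (log2 fold change -3.26 ± 0.04, adjusted p = 5.04e-17) and 1.82-fold lower at day 14 (-0.86 ± 0.04, adjusted p = 1.44e-10). HET was 1.38-fold lower than WT (-0.47 ± 0.04, adjusted p = 1.89e-07), and KO was 1.32-fold lower than HET (-0.40 ± 0.04, adjusted p = 1.31e-06). From day 4 to day 14 Ptgs2 fell 20.5-fold in WT (-4.36 ± 0.04) and 3.90-fold in KO (-1.96 ± 0.04), and the difference between these changes was 2.39 ± 0.06 on the log2 scale (adjusted p = 5.53e-14). By size, the fall in WT exceeded that of 97.6% of tested genes in that comparison, and the KO fall exceeded 89.3% in its own. The 2 comparisons over time share no libraries, whereas those between genotypes at day 14 share the WT, HET or KO libraries.

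Ptgs1, the constitutive COX-1, went the other way between genotypes. It stood at 62.1, 65.0 and 63.8 CPM in WT and 124, 132 and 121 CPM in KO at day 4. At day 14 the levels were 11.0, 11.7 and 10.1 CPM in WT, 17.5, 19.98 and 21.7 CPM in HET and 31.4, 30.9 and 29.8 CPM in KO. The order was KO day 4, WT day 4, KO day 14, HET and WT day 14, again with no overlap between neighbours. By the same edgeR test Ptgs1 was 1.98-fold higher in KO than in WT at day 4 (log2 fold change 0.98 ± 0.07, adjusted p = 3.22e-09) and 2.80-fold higher at day 14 (1.49 ± 0.08, adjusted p = 3.23e-10). HET was 1.80-fold above WT (0.85 ± 0.08, adjusted p = 3.09e-07) and KO 1.55-fold above HET (0.64 ± 0.08, adjusted p = 3.16e-06). Ptgs1 fell with time in both genotypes, by 2.54 on the log2 scale in WT and by 2.03 in KO, a difference of 0.50 ± 0.11 (adjusted p = 6.05e-04).

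Because Ptgs2 and Ptgs1 moved in opposite directions between genotypes, their ratio separated the genotypes within a day. Per length, as CPM divided by exon length in kilobases (RPKM), the level of Ptgs2 was 74.0 to 78.4 times that of Ptgs1 in WT at day 4 and 3.83 to 4.27 times in KO. At day 14 the ratio was 20.6 to 22.5 in WT, 7.87 to 9.97 in HET and 4.12 to 4.38 in KO. The 2 KO groups overlapped in this ratio although both genes had fallen between them, and Ptgs2 still held 79.3 to 81.4% of the summed cyclooxygenase RPKM there. In WT that share was 95.4 to 98.7%. No test was run on the ratio.

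**Figure D2:**
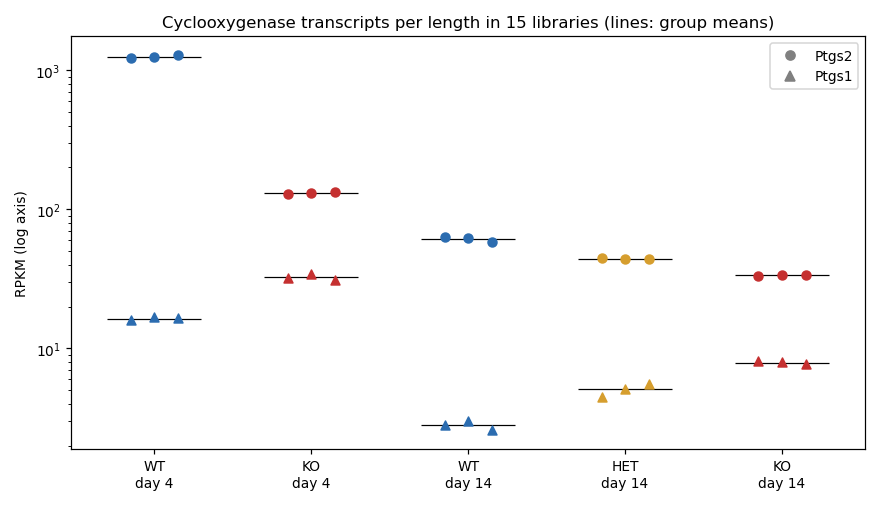
RPKM of Ptgs1 (triangles) and Ptgs2 (circles) in each library on a log axis, with the 5 groups along the horizontal axis and lines at group means. Ptgs2 lies above Ptgs1 in every library, and the distance is widest in WT at day 4, where the ratio is 74.0 to 78.4.

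Ptges, the microsomal prostaglandin E synthase that works after COX-2, was highest in WT at day 14 and did not follow Ptgs2 over time. Its levels were 40.5, 42.0 and 40.5 CPM in WT and 5.70, 5.02 and 5.91 CPM in KO at day 4. At day 14 they were 119, 115 and 105 CPM in WT, 14.6, 14.1 and 14.964 CPM in HET and 13.5, 14.955 and 13.3 CPM in KO. All WT libraries lay above all HET and KO libraries, and HET and KO of day 14 overlapped. Tested with edgeR, Ptges was 7.38-fold lower in KO than in WT at day 4 (log2 fold change -2.88 ± 0.08, adjusted p = 3.26e-14) and 8.13-fold lower at day 14 (-3.02 ± 0.07, adjusted p = 4.15e-14).

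The HET cells, which kept Actb at 1522 CPM, were at the KO level of Ptges. HET was 7.77-fold below WT (-2.96 ± 0.07, adjusted p = 5.73e-14), and KO against HET did not pass (-0.07 ± 0.08, adjusted p = 0.487). Ptges rose with time in both genotypes, 2.76-fold in WT (1.46 ± 0.07, adjusted p = 1.85e-11) and 2.50-fold in KO (1.32 ± 0.08, adjusted p = 1.22e-09), and the difference between the 2 changes did not pass (-0.14 ± 0.11, adjusted p = 0.26). With Ptgs2 falling, the RPKM of Ptges per RPKM of Ptgs2 went from 0.0080 to 0.0086 in WT at day 4 to 0.457 to 0.482 at day 14. In KO it went from 0.0098 to 0.0114 at day 4 to 0.101 to 0.112 at day 14, and HET stood at 0.0821 to 0.0866.

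Ptgis, prostacyclin synthase, changed in opposite directions over time in WT and KO. It had 41, 36 and 13 counts (0.807 ± 0.224 CPM) in WT and 164, 197 and 172 counts (5.33 ± 0.850 CPM) in KO at day 4. At day 14 it had 178, 149 and 161 counts (7.58 ± 0.7003 CPM) in WT, 344, 329 and 365 counts (16.7 ± 0.480 CPM) in HET and 1, 2 and 1 counts (0.0578 ± 0.0292 CPM) in KO. HET was highest and KO of day 14 nearly without counts, and no library overlapped the next group in the order HET, WT day 14, KO day 4, WT day 4 and KO day 14. With edgeR, Ptgis was higher in KO than in WT at day 4 (log2 fold change 2.66 ± 0.19, adjusted p = 1.56e-09) and lower at day 14 (-6.95 ± 0.73, adjusted p = 2.46e-11). HET was above WT by 1.14 ± 0.14 (adjusted p = 2.98e-06). Ptgis rose over time in WT by 3.17 ± 0.19 and fell in KO (-6.44 ± 0.73), with a difference of -9.61 ± 0.75 (adjusted p = 2.48e-12) that exceeded in size that of 99.8% of tested genes. The day 14 KO level rests on 4 counts in all, so its fold carries the wide error given. On the opposite strand 1110018N20Rik shares 6.08% of the exon bases of Ptgis, and the kit did not mark strand.

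Ptgds, lipocalin-type prostaglandin D synthase, was read almost only in KO cells. It had 130, 126 and 111 counts in KO at day 4, or 3.67 ± 0.536 CPM, and 18, 14 and 12 counts at day 14, or 0.625 ± 0.144 CPM. WT had 1, 1 and 0 counts at day 4 and 0, 1 and 0 at day 14, and HET had none, where 3 counts over the group would be 0.0483 CPM. KO exceeded WT by a ratio of 193 at day 4 (95% exact counting interval 53.0 to 1599.5) and of 40.0 at day 14 (6.81 to 1615.5), and exceeded HET at least 12.9-fold. No p-value is given for these comparisons, since Ptgds was tested only because of its KO counts. By edgeR, Ptgds fell in KO over time (-2.55 ± 0.30 on the log2 scale, adjusted p = 4.44e-06). Such intervals and bounds cover counting error only.

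Markers of cells known for Ptgds or for other prostanoid enzymes were read beside it. The summed level of 8 smooth muscle markers was 2481 to 2497 CPM in KO at day 4 and 557 to 577 CPM in KO at day 14, against 26.6 to 29.8 CPM in WT at day 4, 67.7 to 76.1 CPM in WT at day 14 and 116 to 130.1 CPM in HET. Of 7 tested markers, 7 passed as higher in KO at day 4 and 5 at day 14. Of all tested genes, 35.7% were higher and 33.8% lower in KO at day 4, and 30.9% and 32.2% at day 14. Actg2 reached the filter through KO alone, with a mean of at most 0.108 CPM in the WT and HET groups. Of the 8 markers, 7 had a mean of at least 1 CPM in KO at each day. In WT 2 did at day 4 and 4 at day 14, and in HET 4 did. Others may thus have been tested only because of KO, so the counts of these markers, also those over time, describe this list only. Acta2 made up most of the sum, while Myh11, the marker of mature smooth muscle, had at most 16 counts over any group. The sum of 7 meningeal fibroblast markers was 108 to 109 CPM in KO and 154 to 160 CPM in WT at day 4, but of the 5 tested, 3 were higher in KO (Tbx18, Crabp2 and Foxc2), Foxc1 did not pass and Zic1 was lower. At day 14 Foxc2 was higher, Zic1 lower and 3 did not pass. The lower sum in KO rests on Zic1, which had no count in KO, 3 counts in HET and a mean of 83.9 CPM in WT at day 4. Mast cell markers summed to at most 1.48 CPM in any library, with Mcpt4 and Ms4a2 at 0, and endothelial markers to at most 15.3 CPM. Of 10 macrophage genes, Ptprc, Adgre1 and Tyrobp had no count at day 4 in any library. They had at most 17 counts over any group at day 14, although Cd14 and Cd68 were expressed. Lyz2 rose over time in WT (3.81 ± 0.66) and in KO (5.61 ± 0.90), while Csf1r fell in KO (-3.76 ± 0.78). The sum of the 10 was 79.6 to 84.4 CPM in WT and 84.0 to 87.2 CPM in KO at day 4. At day 14 it was 37.1 to 39.2 CPM in WT, 141 to 176 CPM in HET and 119 to 126 CPM in KO. Of 8 adipocyte markers the sum was 110.5 to 114 CPM in KO and 26.5 to 27.9 CPM in WT at day 4, and 481 to 499 CPM in KO, 251 to 382 CPM in HET and 28.1 to 32.9 CPM in WT at day 14. Fabp4 and Lpl carried this sum, with Fabp4 alone at 419 CPM in KO at day 14. Of the other tested adipocyte markers, Pparg was higher in KO at both days and Cebpa was lower at day 4 (-4.11, edgeR adjusted p = 2.11e-08) and did not pass at day 14 (-0.45, adjusted p = 0.206), and Adipoq and Cidec had at most 1 count over any group. The smooth muscle sum was highest in KO at day 4 and next in KO at day 14, as Ptgds was, but its markers did not all follow Ptgds. Of 7 tested, 5 fell in KO over time, where 30.1% of all genes fell. Des rose there (1.73 ± 0.12, edgeR adjusted p = 3.07e-09), and Smtn did not pass (-0.04 ± 0.07, adjusted p = 0.593). In WT 4 of the 7 rose over time, where 39.7% of all genes rose, while Ptgds had at most 1 count per library. HET had no Ptgds count. The part of these markers in the level of Ptgds was not tested.

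**Figure D3:**
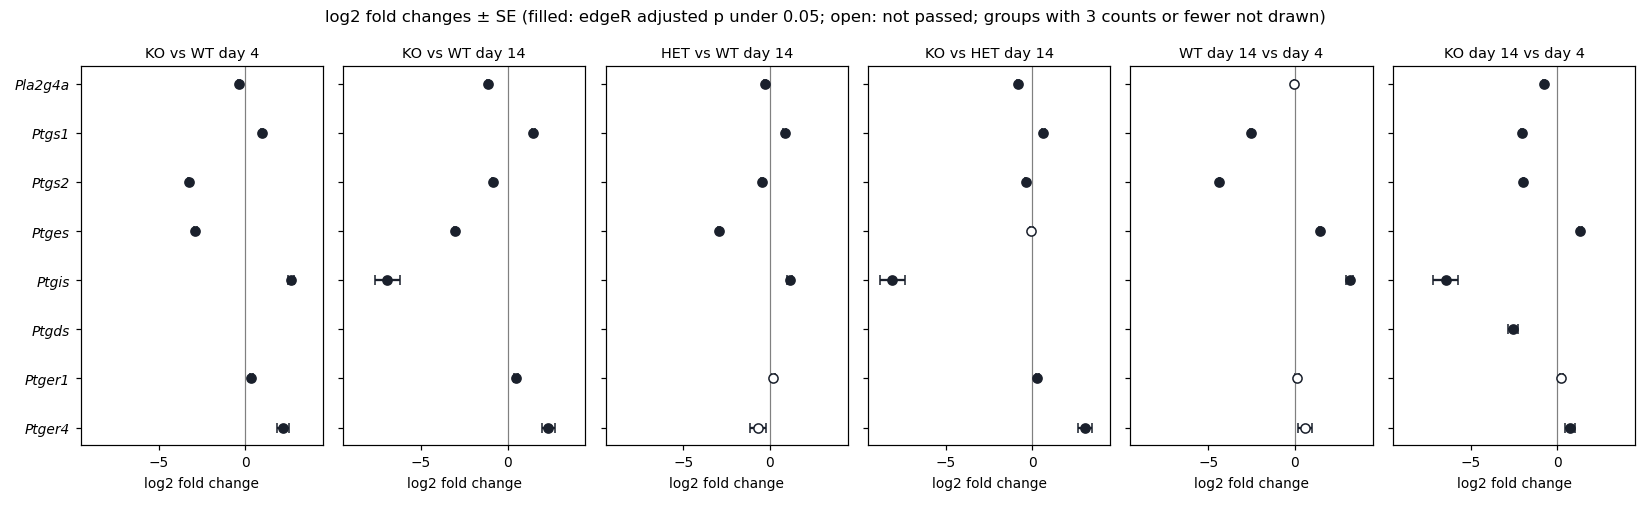
Log2 fold changes with their standard errors from edgeR for the tested members in 6 comparisons between groups, where filled points passed an adjusted p of 0.05. Ptgs2 and Ptges lie below 0 and Ptgs1 above 0 in KO against WT at both days, and Ptgis changes side between the days. Ptgds is drawn only for KO over time, since WT and HET held at most 3 counts.

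Among the 4 receptors for prostaglandin E2, Ptger1, the receptor EP1, had the most counts. Its exons overlap other annotation and the kit did not mark strand, so its values are uncertain and may hold reads that are not its own. Its levels were 30.6, 30.05 and 31.7 CPM in WT and 40.1, 40.4 and 38.0 CPM in KO at day 4, and 37.4, 32.2 and 30.3 CPM in WT, 41.8, 31.5 and 40.8 CPM in HET and 42.9, 51.1 and 45.4 CPM in KO at day 14. KO lay above WT at both days without overlap, and HET overlapped WT. In edgeR's test Ptger1 was higher in KO than in WT by 0.36 ± 0.10 at day 4 (adjusted p = 0.00478) and 0.48 ± 0.10 at day 14 (adjusted p = 7.78e-04).

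The HET comparisons of Ptger1 changed side of the threshold when single libraries were left out. The HET libraries held 41.8, 31.5 and 40.8 CPM, of which the low value is replicate 2, the library that stood apart. HET against WT did not pass (0.19 ± 0.10, adjusted p = 0.125), and did pass without HET replicate 2 (0.31, adjusted p = 0.00199) or without WT replicate 1 of day 14 (0.29, adjusted p = 0.0361). KO against HET passed (0.29 ± 0.10, adjusted p = 0.0244), and did not without HET replicate 2 (0.17, adjusted p = 0.0766) or without KO replicate 2 of day 14 (0.21, adjusted p = 0.125). The day 14 minus day 4 change in KO missed the threshold (0.23 ± 0.10, adjusted p = 0.0546), although the KO libraries of the 2 days did not overlap.

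Ptger4, the receptor EP4, was low but higher in KO than elsewhere. It had 25, 8 and 9 counts in WT and 64, 56 and 61 in KO at day 4, and 15, 15 and 8 in WT, 10, 4 and 9 in HET and 55, 62 and 100 in KO at day 14. These are 0.386 ± 0.182, 1.80 ± 0.127, 0.590 ± 0.187, 0.365 ± 0.139 and 3.04 ± 0.832 CPM. Every KO library lay above every WT and HET library, and the WT and HET libraries overlapped. In edgeR's test KO exceeded WT 4.55-fold at day 4 (log2 fold change 2.18 ± 0.36, adjusted p = 3.43e-05) and 5.13-fold at day 14 (2.36 ± 0.36, adjusted p = 2.34e-05), and exceeded HET 8.16-fold (3.03 ± 0.41, adjusted p = 4.29e-06). HET against WT did not pass (-0.67 ± 0.47, adjusted p = 0.225).

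Over time, Ptger4 passed in KO (0.76 ± 0.29, adjusted p = 0.0327) and not in WT (0.58 ± 0.42, adjusted p = 0.212), and the difference between these changes did not pass (0.17 ± 0.51, adjusted p = 0.79). The KO change was lost when any KO library of day 4, or KO replicate 2 or 3 of day 14, was left out. Without KO replicate 3 of day 14, which had 100 counts, it was 0.52 with an adjusted p of 0.186. Ptger4 shares 1.23% of its exon bases with Ttc33, and 15.3% with a pseudogene, Gm15937, that had no count.

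The receptors EP2 and EP3 were near the limit of detection and under the count filter of the test. Ptger2 had 6 counts over the 3 WT libraries of day 4, 3 in WT of day 14, 1 and 0 in KO and 2 in HET, so no difference was detectable at this depth. Ptger3 had 7, 10 and 9 counts in KO at day 14, or 0.370 ± 0.0816 CPM, against 3, 4 and 2 in WT and 1, 0 and 0 in HET. At day 4 it had 6, 8 and 0 counts in WT and 0, 1 and 0 in KO. The KO libraries of day 14 lay above all others. The ratio of KO to HET was 22.8 (95% exact counting interval 3.74 to 935) and that of KO at day 14 to day 4 was 37.0 (6.08 to 1517). WT to KO at day 4 was 13.3 (2.03 to 563), with no count in the third WT library. The sum of the adipocyte markers, carried by Fabp4 and Lpl, was also highest in KO at day 14. It was next highest in HET (251 to 382 CPM), where Ptger3 had 1 count and Ptger4 its lowest group mean, 0.365 CPM. Of 4 tested adipocyte markers, 3 rose in KO over time, where 30.8% of all genes rose. Pparg fell (-0.85 ± 0.23, edgeR adjusted p = 0.00413). The part of these markers in the level of Ptger3 or Ptger4 was not tested. Without the count filter, edgeR gave Ptger3 an adjusted p of 0.00172 for KO against HET. The adjusted p was 1.38e-04 for KO over time and 0.0252 for KO against WT at day 4. In the same fit Ptger3 did not pass in KO against WT at day 14 (1.41, adjusted p = 0.225) or in HET against WT (-2.77, adjusted p = 0.12).

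Pla2g4a and Ptgs2 are neighbours on chromosome 1, 138.7 kb apart with no protein-coding gene between them. Pla2g4a lies at chr1:149829618-149961290 on the minus strand and Ptgs2 (ENSMUSG00000032487) at chr1:150100031-150108227 on the plus strand, on GRCm38 with the GENCODE M21 annotation. Just upstream of Ptgs2, in the opposite direction, starts the noncoding gene Ptgs2os, whose RefSeq start is 157 bases from that of Ptgs2, so that its start falls within the Ptgs2 sequence printed above. Ptgs2os2 is a noncoding gene farther along, at chr1:150159043-150164948. These 2 noncoding genes were chosen for their position, after earlier results were known.

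Ptgs2os followed the fall of Ptgs2 with time but less of its genotype difference at day 4. It stood at 23.6, 25.2 and 24.7 CPM in WT and 14.3, 14.9 and 13.9 CPM in KO at day 4, and at 5.37, 4.78 and 4.44 CPM in WT, 2.83, 1.84 and 2.12 CPM in HET and 1.90, 2.104 and 2.06 CPM in KO at day 14. No group overlapped another save HET and KO. By edgeR, KO was below WT by -0.77 ± 0.10 at day 4 (adjusted p = 2.78e-06), beside -3.26 for Ptgs2, and by -1.27 ± 0.15 at day 14 (adjusted p = 1.24e-06). Ptgs2os fell over time by 2.33 on the log2 scale in WT and by 2.83 in KO. Ptgs2os2 had 17.9, 20.1 and 17.6 CPM in WT and 1.72, 0.895 and 1.84 CPM in KO at day 4, with a log2 fold change of -3.62 ± 0.18 (adjusted p = 1.74e-11). Over time it did not pass in WT (-0.14 ± 0.13, adjusted p = 0.364), rose by 2.29 ± 0.19 in KO (adjusted p = 1.99e-08), and reached 16.9 CPM in WT, 13.9 CPM in HET and 7.40 CPM in KO at day 14. The differences between these values of the 3 genes were not tested.

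**Figure D4:**
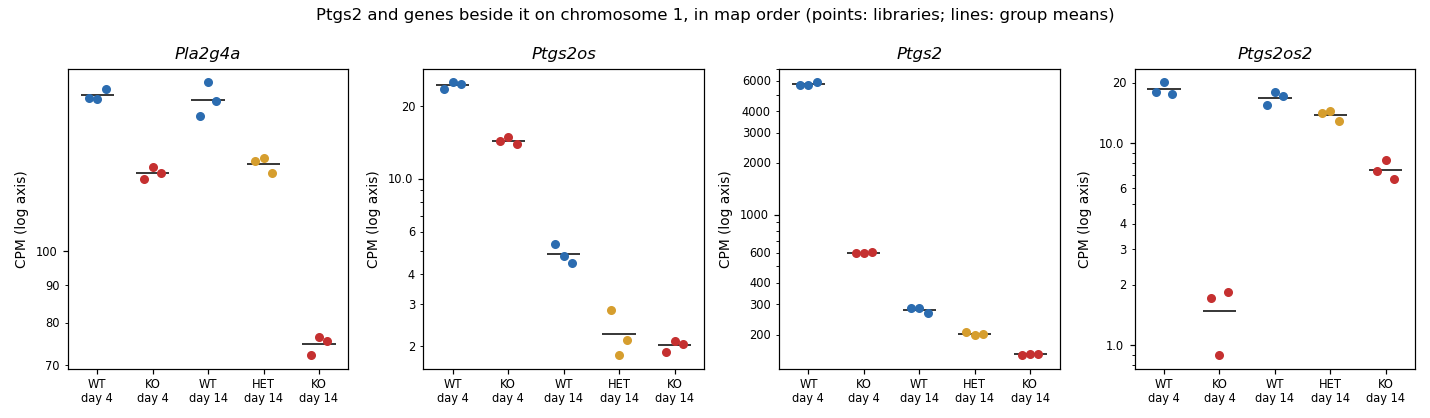
Levels of Pla2g4a, Ptgs2os, Ptgs2 and Ptgs2os2, in their order along chromosome 1, as CPM on log axes that differ between panels, with points for libraries and lines for group means. Ptgs2 and Ptgs2os are highest in WT at day 4 and lowest in KO or HET at day 14, whereas Pla2g4a is within 153 to 170.15 CPM in all 6 WT libraries.

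For each tested member, the 3 genes with the most similar log2 levels over the 15 libraries were listed. The libraries form 5 groups, so a high r says little beyond the 5 group means. Ptgs2 was most like Snx9 (Pearson r = 0.998), Zfp367 (0.992) and Ptprk (0.988), and Ptgs1 was most like Hspa4l (0.993), Ttc14 (0.981) and Serpini1 (0.980). Ptges was most like Hr (0.997), Lgi2 (0.985) and Snap91 (0.982). Ptgis was most like Gstm4 and Ccar2 (both 0.974) and Thbs3 (0.966), and Pla2g4a was most like Rnf227 (0.977), Ciapin1 (0.968) and Sumo3 (0.964). Ptgds was most like Gm11645 (0.987), the smooth muscle actin gene Actg2 (0.980) and Gm37565 (0.978). For the receptors, Ptger4 was most like Gm17028 (0.960), Acacb (0.949) and Prag1 (0.947), and Ptger1 like Cit (0.950), Pms1 (0.942) and Helz (0.936). Between members, the widest values were -0.83 for Pla2g4a with Ptger1 and 0.80 for Ptgds with Ptger4, and the 2 cyclooxygenase genes had 0.54.

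Other genes of the pathway were read from lists compiled from general knowledge, and each count is read against the share of all tested genes that passed between KO and WT, 69.5% at day 4 and 63.1% at day 14. The median log2 fold change of all genes was 0.03 and -0.02. Of 11 tested genes for other prostanoid synthases or their relatives, 8 were higher and 2 lower in KO than in WT at day 4, with a median log2 fold change of 0.75, and 4 were higher and 3 lower at day 14, with a median of 0.05. These counts include Fam213b, which reached the filter through WT alone, so they describe this list only. Akr1b3, an aldose reductase that can make prostaglandin F2 alpha, was at 819, 829 and 801 CPM in KO and 162, 160 and 155 CPM in WT at day 4 (log2 fold change 2.36 ± 0.07, adjusted p = 7.79e-14 in edgeR's test), and then fell to 25.9 CPM in KO and 37.9 CPM in WT at day 14. Gstm2, a glutathione transferase with prostaglandin E synthase activity in vitro, was higher in KO by 2.42 ± 0.06 at day 4 and by 0.67 ± 0.05 at day 14. Akr1c14 was higher in KO by 4.74 ± 0.32 and 2.32 ± 0.21. The non-inducible E synthases were looked at after their values were seen. Ptges2 was at 43.6 CPM in WT and 45.2 CPM in KO at day 14 (0.05 ± 0.07, edgeR adjusted p = 0.499), and Ptges3 at 321 and 336 CPM (0.06 ± 0.07, adjusted p = 0.413). At day 4 Ptges2 was higher in KO (0.39 ± 0.07) and Ptges3 lower (-0.51 ± 0.07).

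Fam213b, which encodes a synthase of prostaglandin F2 alpha and prostamide F2 alpha, had no count in any of the 6 KO libraries. It had 89, 65 and 38 counts in WT at day 4 and 455, 547 and 628 at day 14, and HET had 1, 1 and 4. Against the floor of 3 counts over the KO group, KO was at least 60.9-fold lower at day 4 and at least 598-fold lower at day 14. HET held 0.0936 CPM against 25.3 CPM in WT at day 14.

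The genes that clear or carry prostaglandins, and the receptors of the other prostanoids, are further steps of the pathway. Of 8 tested genes of breakdown and transport, 6 were higher and 1 lower in KO at day 4 (median 0.53), and 3 were higher and 2 lower at day 14 (median -0.11), beside 69.5% and 63.1% of all genes. Hpgd, the main enzyme that inactivates prostaglandin E2, had too few counts to be tested. Slco3a1, a transporter that can carry prostaglandins, was higher in KO at day 4 (48.9 against 10.1 CPM, log2 fold change 2.27 ± 0.07) and lower at day 14 (3.003 against 8.64 CPM, -1.52 ± 0.12). The 3 tested receptor genes Ptgfr, Ptgir and Tbxa2r were all lower in KO at day 4 (median -2.49), where 33.8% of all genes were lower. For Tbxa2r the fall had a wide error (-2.19 ± 1.00, edgeR adjusted p = 0.0338). Of the 3, Ptgfr alone passed at day 14, as lower (median of the 3 -0.89), where 32.2% of all genes were lower. Ptgfrn, which was in the same list and encodes a regulator of the prostaglandin F receptor, not a receptor, was higher in KO at day 4 (0.67 ± 0.09) and did not pass at day 14 (0.20 ± 0.09, edgeR adjusted p = 0.0568). Ptgfr, the prostaglandin F receptor, was at 31.1, 32.9 and 33.5 CPM in WT and 5.95, 5.31 and 6.05 CPM in KO at day 4 (-2.49 ± 0.10, edgeR adjusted p = 2.69e-12). At day 14 it was at 19.2 CPM in WT, 21.2 in HET and 5.76 in KO (KO against WT -1.74 ± 0.11). Ptgir, the prostacyclin receptor, was lower in KO at day 4 (-2.59 ± 0.36, adjusted p = 5.39e-06) and did not pass at day 14 (-0.09 ± 0.32, adjusted p = 0.825).

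**Figure D5:**
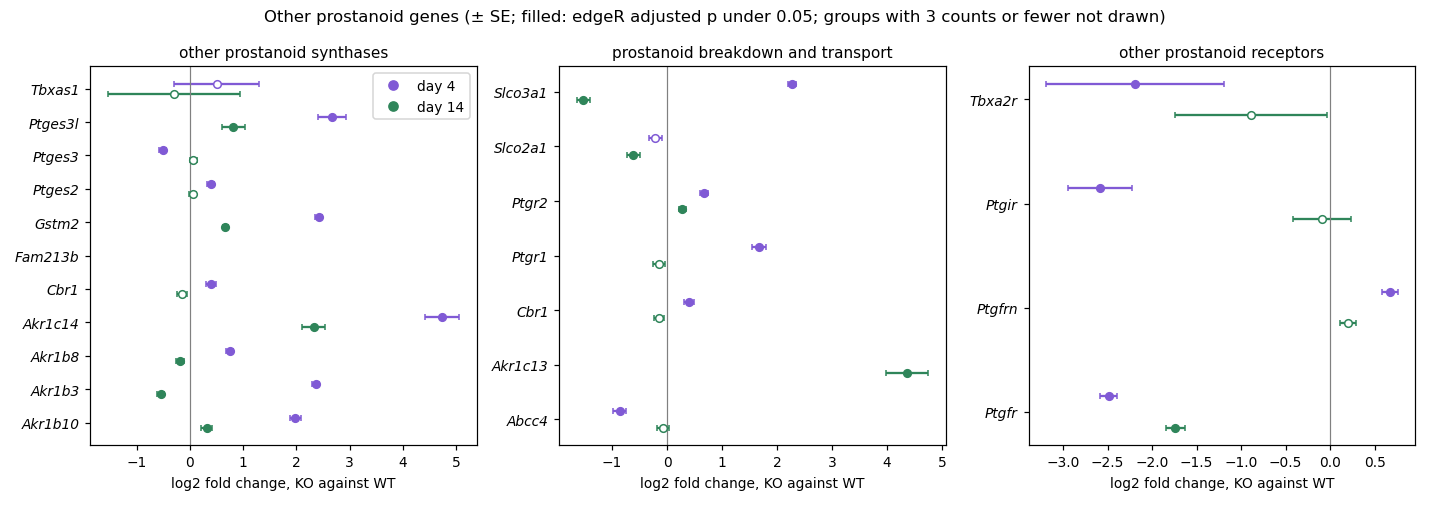
Log2 fold change of KO against WT at day 4 and at day 14 for tested genes of 3 lists (other prostanoid synthases, breakdown and transport, other prostanoid receptors), with standard errors, filled where edgeR's adjusted p was under 0.05. Slco3a1 lies at 2.27 at day 4 and at -1.52 at day 14, and Fam213b, with no KO count, is not drawn.

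A further list held genes known to act on Ptgs2 or Pla2g4a, or on their messages. Of 22 tested, 7 were higher and 11 lower in KO at day 4 (median -0.33), where 35.7% of all genes were higher and 33.8% lower. At day 14, 11 were higher and 9 lower (median 0.12), where 30.9% of all genes were higher and 32.2% lower. Egr1, an early growth response factor, was at 169, 167 and 159 CPM in WT and 29.2, 30.1 and 28.0 CPM in KO at day 4 (log2 fold change -2.51 ± 0.07, edgeR adjusted p = 7.67e-14). At day 14 the difference was -1.12 ± 0.07 (77.9 CPM in KO against 169 CPM in WT). Zfp36, which encodes tristetraprolin, a protein that destabilises messages with AU-rich elements, was lower in KO at day 4 (18.4 against 71.0 CPM, -1.95 ± 0.06) and slightly higher at day 14 (58.0 against 49.5 CPM, 0.23 ± 0.06). Celf2, an RNA-binding protein that binds the Ptgs2 message, was higher in KO at both days (3.69 ± 0.14 and 2.42 ± 0.15). Tsc22d3, a gene that glucocorticoids raise, was higher in KO at both days (1.44 ± 0.08 and 1.14 ± 0.09), and in HET at day 14 by 1.86 ± 0.09. Anxa1, annexin A1, was higher in KO at day 4 (2.27 ± 0.08) and did not pass at day 14 (0.01 ± 0.08, adjusted p = 0.901).

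Other phospholipases and the proteins that couple the E2 receptors to their signals complete the lists. Of 11 tested phospholipase genes, 6 were higher and 4 lower in KO at day 4 (median 0.88), and 4 were higher and 2 lower at day 14 (median -0.09), beside 69.5% and 63.1% of all genes that passed. They include Pla2g5, which reached the filter through its KO counts of day 4 (76, against 1 in WT). The list also held 5 other lipases and hydrolases (Mgll, Faah, Abhd6, Dagla and Daglb), and with them 8 of 16 were higher and 5 lower at day 4 (median 0.43) and 5 higher and 2 lower at day 14 (median 0.06). Pla2g2e, a secreted phospholipase A2, was higher in KO at both days (1.77 ± 0.27 and 2.87 ± 0.25) and reached 7.84 CPM in KO, 5.36 CPM in HET and 1.07 CPM in WT at day 14. Pla2g16, an enzyme known for lipid release in fat cells, was higher in KO at day 4 (1.49 ± 0.15) and did not pass at day 14 (-0.18 ± 0.13, edgeR adjusted p = 0.227). Of 21 tested coupling genes, 9 were higher and 6 lower at day 4 (median 0.13), and 7 were higher and 10 lower at day 14 (median -0.20), again beside 69.5% and 63.1% of all genes. Rapgef3, the cyclic AMP sensor EPAC1, was at 21.5 CPM in KO and 2.53 CPM in WT at day 4 (3.11 ± 0.13), and Prkar2b, a regulatory subunit of protein kinase A, was at 135 and 36.4 CPM (1.89 ± 0.09). Adcy3, an adenylyl cyclase, was lower in KO at day 14 (3.27 against 18.6 CPM, -2.50 ± 0.17), and Gna13, a G protein alpha subunit, was higher (232 against 107 CPM, 1.12 ± 0.07).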

How the data were processed

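Gene counts of 15 libraries were used as the authors deposited them, as whole-number counts per Ensembl gene ID. Per the submitters' processing notes, TopHat2 2.1.0, HTSeq and DESeq2 were used with GRCm38.p4. The HTSeq version, annotation release and strand setting were not given in the sources used here. Per the labels' protocols, the library kit did not mark strand. Symbols, coordinates and exon lengths came from GENCODE M21, which matched 46005 of 46603 IDs, and the other 598 held 0.0762% of counts.

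Counts were fitted with edgeR 4.0.16 (R 4.3.3) by its quasi-likelihood test, with TMM scaling and its expression filter (minimum count 10), on all 15 libraries and 15296 genes, for 7 comparisons. P-values were adjusted by Benjamini-Hochberg over all tested genes, with a threshold of 0.05. The fit was tested on simulated counts. Levels are TMM-scaled CPM and RPKM computed here from the counts. All 10 members were named, besides the up to 4 genes with the smallest adjusted p per pathway list and comparison, the 3 genes most alike to each tested member, and Actb. Others, such as Ptgs2os, Ptgs2os2 and the cell markers, were named after their values were seen. Some genes that the rule or an overlap would name are not reported here. The members and lists were chosen with earlier results of these data known. Alternatives were DESeq2 1.42.0, RLE scaling, 2 other filters, a fit on the compared groups only, a replicate block and leaving out each library.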

Additional observations from a re-analysis of the deposited data

Results flagged for a closer look

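For 4 of 7 tested members, Ptgds left aside, the change from day 4 to day 14 differed between KO and WT by the test of that difference in edgeR. Of all 15296 tested genes, 64.7% passed the same test. The KO minus WT difference in log2 change was 2.39 for Ptgs2, which fell less in KO, and 0.50 for Ptgs1, which also fell less in KO. It was -0.76 for Pla2g4a, which fell in KO and did not pass in WT, and -9.61 for Ptgis, which rose in WT and fell in KO to 4 counts over 3 libraries.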

How the results depend on the processing

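Over 56 member results, 717 values under the alternatives were compared with the reported ones, and 696 kept both their direction and their side of the threshold. Of the other 21, 14 changed side of the threshold, all of them for Ptger1 (HET against WT, KO against HET, and KO over time) and Ptger4 (KO over time). The other 7 changed sign without passing in either fit, each when 1 library was left out. These were the change over time in WT of Ptgds (-2.35 to 0.25 over the fits without 1 library, positive without WT replicate 2 of day 4 or replicate 1 or 3 of day 14) and of Pla2g4a (-0.063 to 0.013, positive without WT replicate 1 of day 14), and the Ptger4 difference between the KO and WT changes (-0.30 to 0.51, negative without WT replicate 1 of day 4, or WT or KO replicate 3 of day 14). For Ptger1 over time in KO, the change passed with DESeq2 (adjusted p = 0.0394), with RLE scaling (0.0466), with the compared groups alone (2.60e-05) and without KO replicate 1 of day 14 (0.0387). KO against HET was lost for Ptger1 with the compared groups alone (0.0942). Leaving out each library in turn gave the following counts of members that passed, with the number of all genes that passed in brackets. KO against WT gave 8 members in every fit, at day 14 (8827 to 9628 genes) and at day 4 (9986 to 10172). WT over time gave 4 (10935 to 11259), and the difference between the changes 4 (9461 to 9934). HET against WT gave 5 to 6 (8167 to 10083). KO against HET gave 6 to 7 (8387 to 9554), and KO over time 6 to 8 (8585 to 8639). These counts hold Ptgds, which was tested only because of its KO counts, so its calls against WT and HET are no support. The labels do not say that replicate numbers pair the samples. Same-numbered libraries had correlations of -0.15 to 0.179 over 30 pairs, with 1 above 0.1. These values cannot settle whether samples were paired, because differently numbered libraries were not set beside them. With the replicate block, all 56 member results kept their call. KO against WT at day 14 then gave 8 members, Ptgds again included, and 9551 genes in place of 9653. Depth limits Ptger2, Ptger3, Ptgds outside KO, and Ptgis in KO at day 14, all with few counts.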

Other observations

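Arachidonic acid also feeds the lipoxygenase and epoxide pathways. Of 11 tested genes of that list, 6 were higher and 3 lower in KO than in WT at day 4 (median log2 fold change 2.56), where 69.5% of all genes passed and their median was 0.03. At day 14, 5 were higher and 4 lower (median 0.18), where 63.1% of all genes passed and their median was -0.02. The counts include Dpep1, which reached the filter through KO alone (59 counts at day 4 and 106 at day 14, against 3 and 4 in WT). They also include Ephx2, which did so through WT alone, so they describe this list only. Ephx2, the soluble epoxide hydrolase, had 136 counts over the WT libraries of day 4 and 288 over those of day 14, against 1 and 0 in KO and 0 in HET. At day 14 it was at least 106-fold lower in KO and at least 92.6-fold lower in HET, against 3 counts over the group. Ephx1, the microsomal epoxide hydrolase, was at 82.8 CPM in KO and 4.47 CPM in WT at day 4 (4.20 ± 0.08, edgeR adjusted p = 3.37e-16), and at 71.6 against 53.5 CPM at day 14 (0.42 ± 0.06). Mgst3, a microsomal glutathione transferase, was higher in KO at both days (4.03 ± 0.36 and 1.20 ± 0.23).

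Of 12 tested genes for enzymes that return fatty acids such as arachidonic acid to phospholipid, 6 were higher and 5 lower in KO at day 4 (median 0.13), and 4 were higher and 3 lower at day 14 (median 0.02), beside 69.5% and 63.1% of all genes that passed. Acsl3, an acyl-CoA synthetase, was at 167 CPM in KO, 132 CPM in HET and 71.2 CPM in WT at day 14 (KO against WT 1.23 ± 0.05). Acsl6, of the same family, was lower in KO at both days (-1.47 ± 0.12 and -2.25 ± 0.13). Lpcat2, an acyltransferase, was higher in KO at day 14 (25.3 against 8.91 CPM) and lower at day 4 (9.67 against 12.9 CPM).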
